A study of Mus musculus with 3 samples.

Results

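The genes described are the 9 genes of MHC class II antigen presentation H2-Aa, H2-Ab1, H2-Eb1, Cd74, Ciita, H2-DMa, H2-DMb1, H2-Oa and H2-Ob, chosen by name. Every probe set of the array whose only gene symbol is one of these was used, which gave 16 of the 34945 probe sets with a single symbol and covered 8 of the 9 genes. H2-DMb1 has no probe set of its own symbol, because both of its probe sets are shared with the neighbouring copy H2-DMb2. RNA came from follicle-associated epithelium, the epithelial sheet over the Peyer's patch follicles of the mouse small intestine. One group is 1 array from C57BL/6 mice with wild type RBP-J. The other is 2 arrays from C57BL/6 mice depleted of RBP-J, in which loxP-flanked Rbpj alleles are removed by a Cre transgene driven by the Villin promoter. All 3 samples are labelled untreated. The labels give no age and do not say whether the wild type mice carried Cre or the floxed alleles. Villin is active in gut epithelium, so leukocytes within the layer keep their Rbpj.

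MHC class II molecules are pairs of an alpha and a beta chain that show peptides from the endocytic pathway to CD4 T cells. The invariant chain, Cd74, fills the groove of a new pair and guides it to endosomes. There H2-DM exchanges the last piece of invariant chain for peptide, and H2-O restrains H2-DM. B cells, dendritic cells and macrophages make class II molecules, and intestinal epithelium makes them under interferon gamma. Ciita, the transactivator that does not itself bind DNA, sits on a complex of RFX, CREB and NF-Y at the X, X2 and Y boxes just upstream of each class II gene.

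The start regions of several members are printed because parts of this layout can be read in them. The RefSeq promoter table of GRCm38.p6 holds 6 of the 9 members, H2-Aa, H2-Eb1, H2-DMa, H2-DMb1, H2-Oa and H2-Ob. It has no entry for H2-Ab1, Cd74 and Ciita. The stretch from 110 to 31 bases before the transcript start, 5′ to 3′ on the gene's strand, is given for 5 of them. Capitals mark the letters TGATTGG (Y box core, which contains the inverted CCAAT letters ATTGG), GNAACNNAT (X box) and TGACGTCA (X2 box). H2-Aa lies at chr17:34287854-34287933 on the minus strand. H2-Eb1 (chr17:34305757-34305836), H2-DMb1 (chr17:34153081-34153160), H2-Oa (chr17:34092269-34092348) and H2-Ob (chr17:34238795-34238874) lie on the plus strand.
H2-Aa: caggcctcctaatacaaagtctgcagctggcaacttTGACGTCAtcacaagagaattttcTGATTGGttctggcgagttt
H2-Eb1: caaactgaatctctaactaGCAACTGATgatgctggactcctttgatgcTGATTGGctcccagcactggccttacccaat
H2-DMb1: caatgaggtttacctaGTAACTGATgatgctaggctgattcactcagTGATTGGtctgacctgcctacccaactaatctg
H2-Oa: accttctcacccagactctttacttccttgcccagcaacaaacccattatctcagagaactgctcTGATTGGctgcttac
H2-Ob: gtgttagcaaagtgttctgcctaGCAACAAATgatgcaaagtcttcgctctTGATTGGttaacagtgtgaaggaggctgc

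The 5 regions printed are those, among the 6 members with a promoter entry, that hold the Y box core. Its first base lay 50 bases before the start in H2-Aa, 61 in H2-Eb1, 63 in H2-DMb1, 45 in H2-Oa and 59 in H2-Ob. The X box letters were found in H2-Eb1, H2-DMb1 and H2-Ob, upstream of the Y box core, and the X2 letters in H2-Aa. Both strands were searched in windows of 300 bases. The Y box core occurred in 7.82% of all 32851 promoters, the X box letters in 7.92%, the X2 letters in 1.79%, and X box and Y box core together in 0.849%. The letters were chosen after these promoters had been read, and a match is a description of sequence, not a measured binding site. H2-DMa has 2 listed start regions, neither of which held the Y core or X2 letters, and 1 held the X box letters 227 bases before its start.

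**Figure D1:**
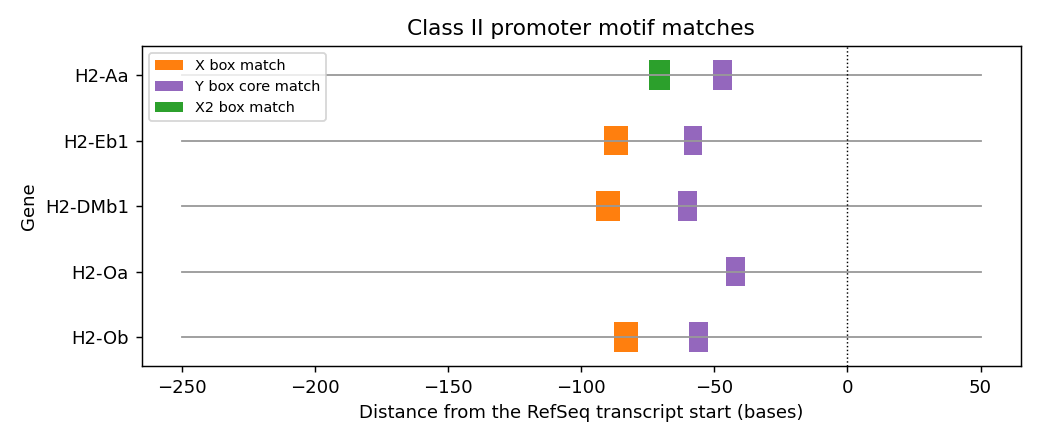
Positions of the motif matches (coloured bars, to scale) in the promoters of the 5 members that hold the Y box core. The axis is the distance in bases from the RefSeq transcript start (dotted line). The Y box core lies between 45 and 63 bases before the start in each, and the X box match lies upstream of it in H2-Eb1, H2-DMb1 and H2-Ob.

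Values are MAS5 intensities in multiples of each array's median. Differences are depleted minus wild type on the log2(value + 0.248) scale and were tested with limma over 22612 probe sets, 15 of the 16 member probe sets among them. P-values are adjusted by Benjamini-Hochberg over all of these, with a call at an adjusted p under 0.05. The labels do not say that the depleted samples came from separate animals. The p-values thus measure only the spread between the depleted arrays, which may be technical, and the spread of the single wild type array is taken to equal theirs. The prior degrees of freedom of the fit were infinite, so each SE and interval is pooled over probe sets of like intensity. None is the spread of a probe set's own readings. The median difference over all probe sets tested was -0.02 in depleted array 1 and 0.21 in depleted array 2, and values of depleted array 2 have to be set against this shift. Rbpj is read by 3 probe sets, in the order wild type, depleted array 1 and depleted array 2 at 7.15, 2.72 and 5.74, at 5.37, 4.14 and 4.92 and at 3.79, 2.30 and 4.21. It was lowest in depleted array 1 in each, depleted array 2 was above wild type in the last, and none was called (limma adjusted p = 0.9999). That test takes the mean of both depleted arrays, so the labelled depletion is not shown beyond the error. Neither depleted array was tested alone. Xist, the female X-inactivation RNA, read 0.297 in wild type against 42.8 and 43.4 after depletion, and the Y-linked Eif2s3y and Kdm5d were high in wild type alone. Genotype and sex of the animals cannot be told apart here.

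In the class II genes limma called no difference that both depleted arrays shared. The 2 depleted arrays differed from each other instead: all 16 member probe sets read higher in depleted array 2 than in depleted array 1. In H2-DMa 1459872_x_at the gap was only 1.275 in depleted array 2 against 1.273 in depleted array 1. Of all probe sets tested, 66.2% were higher in depleted array 2, and 75.5% of those with a mean of at least 5. With the median difference of each array subtracted, 12 of the 15 tested were higher in depleted array 2, beside 49.4% of all probe sets tested. The 15 cover only 8 genes, and this share was not taken for bright probe sets alone. The 3 that then turned the other way were those of H2-Eb1 (0.29 in depleted array 1 and 0.17 in depleted array 2), Ciita 1421210_at (0.31 and 0.09) and H2-DMa 1459872_x_at (0.09 and -0.14). Against wild type, 7 of the 15 tested were lower in depleted array 1 and higher in depleted array 2 (30.5% of all probe sets tested). A further 5 were higher in both (37%) and 3 were lower in both (21.3%). Limma called 1 of the 15 tested, a probe set of H2-Aa, where 0.0929% of all probe sets tested were called, and that value came from depleted array 1. It was also the sole member probe set at an unadjusted limma p under 0.05, beside 499 of all 22612 tested. The calls over all probe sets included those of the sex-linked Xist, Eif2s3y and Kdm5d.

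**Figure D2:**
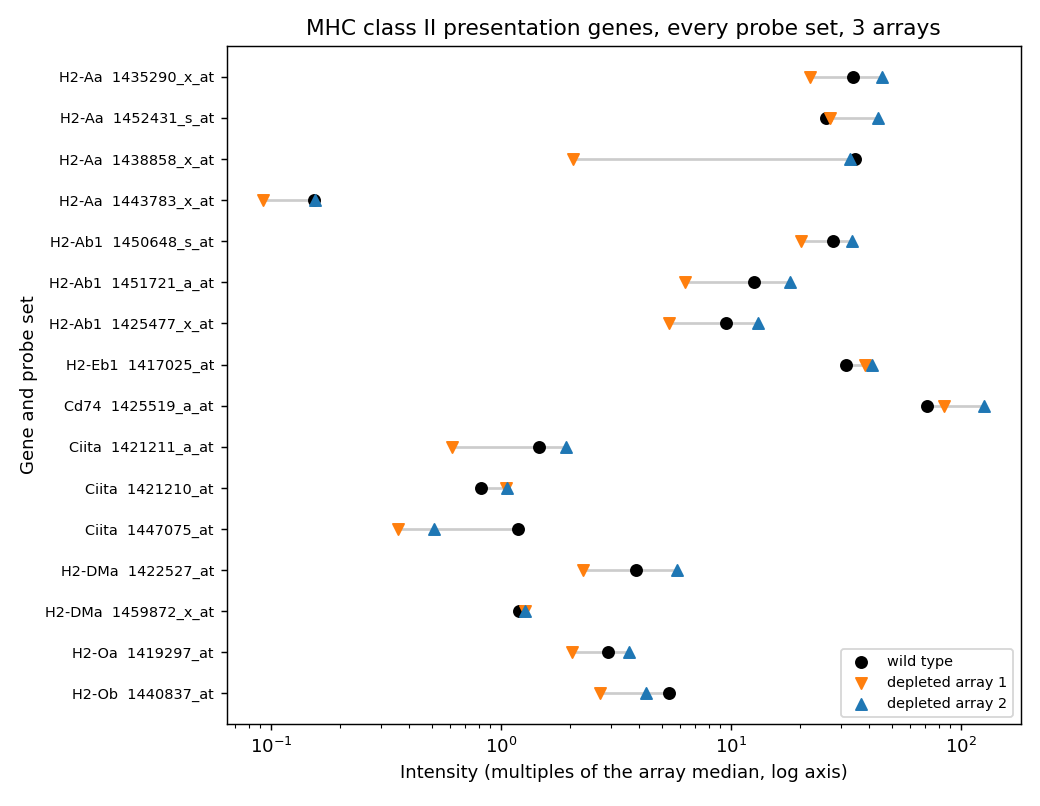
Intensity of each of the 16 class II probe sets (multiples of the array median, log axis) in the wild type array and both depleted arrays, 1 point per array, with a grey line over the range. The triangle of depleted array 2 lies to the right of that of depleted array 1 in every line, and H2-Aa 1438858_x_at has by far the widest range, from 2.05 to 34.5.

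H2-Aa and H2-Ab1 encode the alpha and beta chains of I-A. H2-Aa (chr17:34282744-34287823, GRCm38.p6) is read by 4 probe sets, and they did not behave alike. The brightest, 1435290_x_at, read 34.0 in wild type, 22.1 in depleted array 1 and 45.5 in depleted array 2. Its log2 differences were -0.61 and 0.42, and their mean was -0.10 (SE 0.43, limma adjusted p = 0.9999). Wild type lay between the depleted arrays. Probe set 1452431_s_at read 25.9 in wild type, 26.9 in depleted array 1 and 43.7 in depleted array 2. Here depleted array 1 was close to wild type and depleted array 2 higher (mean log2 difference 0.40, SE 0.43, limma adjusted p = 0.9999).

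Probe set 1438858_x_at of H2-Aa stood apart. It read 34.5 in wild type and 33.0 in depleted array 2 but 2.05 in depleted array 1, 16.9-fold under wild type. Its log2 differences were -3.92 in depleted array 1 and -0.06 in depleted array 2, a mean of -1.99 (SE 0.47, limma adjusted p = 0.0291). Limma called 21 probe sets, of which 20 differed by 2-fold or more, and the same way, in each depleted array. This was the 1 among them with an array within 0.1 of wild type on the log2 scale. Without depleted array 1 the difference is -0.06. The prior degrees of freedom of the fit were infinite, so the SE is pooled over probe sets and does not hold the gap between 2.05 and 33.0. The call was kept with 1 of 9 alternative settings, and the adjusted p ranged from 0.0342 to 1 over them. It was 0.909 by eBayes without trend. The drop of this probe set below both other arrays, 3.86 on the log2 scale, was the largest among the 22612 probe sets tested. The ending x of its name marks probes that may also match other transcripts, and 1435290_x_at has the same ending. The dim probe set 1443783_x_at read 0.154, 0.092 and 0.155, under the intensity floor of the test.

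H2-Ab1 (chr17:34263227-34269418) is read by 3 probe sets, which went the same way. The brightest, 1450648_s_at, read 27.7 in wild type, 20.3 in depleted array 1 and 33.5 in depleted array 2. Probe set 1451721_a_at read 12.6, 6.33 and 18.1 in the same order, and 1425477_x_at read 9.50, 5.39 and 13.2. In each, depleted array 1 was the lowest and depleted array 2 the highest, with wild type between them. The log2 differences of depleted array 1 ran from -0.97 to -0.45 and those of depleted array 2 from 0.27 to 0.51. The means, from -0.23 to -0.09, were smaller than their SE of 0.44 to 0.49.

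H2-Eb1 (chr17:34305867-34316674) encodes the beta chain of I-E. It read 31.5 in wild type, 38.1 in depleted array 1 and 41.2 in depleted array 2, 39.7 ± 2.19 (SD, n = 2) in the depleted arrays. Both lay above wild type and close to each other, by log2 differences of 0.27 and 0.38 (mean 0.33, SE 0.42, 95% interval -0.50 to 1.15, limma adjusted p = 0.9999). C57BL/6 mice lack a working alpha chain for I-E, and RefSeq lists H2-Ea as a transcribed pseudogene. The 3 probe sets of H2-Ea read between 0.022 and 0.307 in all arrays, under the intensity floor of the test. H2-Eb2, a further beta chain gene of the locus, read 1.22 in wild type against 1.58 and 2.01.

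Cd74 (chr18:60803849-60812652) encodes the invariant chain. Its probe set read 71.5 in wild type, 84.7 in depleted array 1 and 126 in depleted array 2. Both depleted arrays were higher than wild type, depleted array 2 by a log2 difference of 0.82 and depleted array 1 by 0.24. The mean of 0.53 was the highest of the members (SE 0.37, 95% interval -0.19 to 1.26), and it was not called (limma adjusted p = 0.9999). Less the median of all probe sets of each array, the differences of Cd74 were 0.26 and 0.61, and those of H2-Eb1 0.29 and 0.17. Probe sets tested with a mean of at least 5 had median differences of -0.004 and 0.30. After quantile normalization the mean log2 differences were 0.29 for Cd74 and 0.13 for H2-Eb1.

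H2-DMa (chr17:34119693-34139101), the alpha chain of the peptide exchange factor, read 3.88 in wild type, 2.28 in depleted array 1 and 5.83 in depleted array 2 with its brighter probe set. This is the order seen in H2-Ab1, and the mean log2 difference was -0.08 (SE 0.52). The dimmer probe set 1459872_x_at read 1.20, 1.27 and 1.28 and set no array apart. The probe sets shared by H2-DMb1 and H2-DMb2, the beta chain genes, read 4.41, 3.30 and 8.80 and 5.59, 6.01 and 8.10, which cannot be assigned to either gene. The 3 probe sets of H2-DMb2 alone had log2 differences of -0.13 to -0.10 in depleted array 1 and 0.50 to 1.001 in depleted array 2, with none called (limma adjusted p = 0.9999).

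H2-Oa and H2-Ob form H2-O, known mainly from B cells and thymic epithelium. H2-Oa (chr17:34092379-34095234) read 2.92 in wild type, 2.03 in depleted array 1 and 3.62 in depleted array 2, so wild type lay between the depleted arrays. H2-Ob (chr17:34238905-34245908) read 5.38 in wild type against 2.68 and 4.29. Both depleted arrays were lower, with log2 differences of -0.94 and -0.31 (mean -0.62, SE 0.52), and the gene was not called (limma adjusted p = 0.9999). A further probe set shared by H2-Ob and a predicted gene read 1.67, 1.73 and 2.37, with no array lower than wild type.

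Ciita (chr16:10480014-10531064) was dim, with all readings of its 3 probe sets between 0.358 and 1.91. Probe set 1421211_a_at read 1.46 in wild type, 0.615 in depleted array 1 and 1.91 in depleted array 2. Probe set 1421210_at read 0.816, 1.05 and 1.06, above wild type in both. Probe set 1447075_at read 1.19, 0.358 and 0.511, lower in both, with a mean log2 difference of -1.08 (SE 0.64, limma adjusted p = 0.9999). The probe sets thus gave 3 different orders of the arrays, and none was called. Readings this close to the pseudocount understate any difference.

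**Figure D3:**
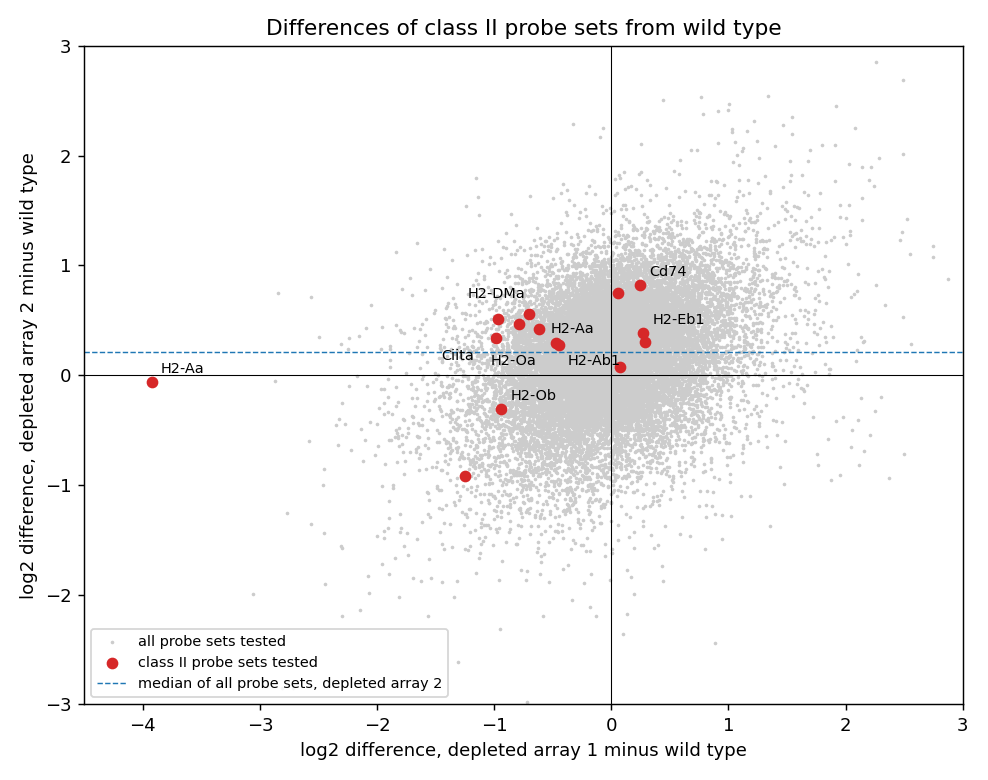
The log2 difference of each probe set in depleted array 1 (x) and depleted array 2 (y), for all probe sets tested (grey) and the 15 class II probe sets tested (red, the brightest of each gene and the outlying H2-Aa probe set labelled). Probe sets beyond the axes are not drawn, the dashed line is the depleted array 2 median over all probe sets (0.21), and H2-Aa 1438858_x_at lies alone at -3.92 and -0.06.

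As a group the 15 tested member probe sets had a median log2 difference of -0.61 in depleted array 1 and 0.34 in depleted array 2, beside -0.02 and 0.21 over all probe sets tested. Among the 8 with a mean of at least 5 the medians were -0.53 and 0.44, beside -0.004 and 0.30 over the 9339 probe sets tested above that level. By the ratio of intensities, 1 of the 15 was at least 2-fold lower in both depleted arrays, Ciita 1447075_at at 3.32-fold and 2.33-fold, beside 0.876% of all probe sets tested. None was at least 2-fold higher in both, beside 1.82%. In depleted array 1, 4 of the 15 were at least 2-fold lower by this ratio, 1 of H2-Aa, 2 of Ciita and 1 of H2-Ob, beside 5.51% of all. On the log2(value + 0.248) scale, which shrinks differences of dim probe sets, a 2-fold difference was reached by 0 lower in both (0.54% of all), 0 higher in both (0.889%) and 2 lower in depleted array 1 (3.6%), of H2-Aa and Ciita.

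The rest of the pathway was taken from 6 lists with 54 measured and 51 tested genes. Limma called 0 of the 51, and 1, H2-Q10, had an unadjusted p under 0.05, where 0.0841% of all 11885 genes tested were called. The genes of the promoter complex, all 7 tested, had medians of -0.44 and 0.25. Of the RFX subunits, Rfx5 read 4.40 in wild type against 4.58 and 4.33, Rfxap 2.32 against 1.55 and 4, and Rfxank 1.48 against 2.31 and 2.15. Of the NF-Y subunits, which bind the Y box, Nfya read 13.3 against 8.99 and 13.5, Nfyb 11.03 against 6.78 and 7.26, and Nfyc 6.91 against 7.58 and 8.28. Creb1 read 8.36 against 6.11 and 12.1. Nfyb was the 1 of the 7 that was lower in both depleted arrays, where 19.5% of all genes tested were, and Rfxank and Nfyc were higher in both, where 39% were.

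The 10 genes that make peptides for class II, proteases of the endosome and the thiol reductase Ifi30, had medians of 0.04 and 0.24, close to the -0.003 and 0.22 of all genes tested. Ctss, the cathepsin that trims the invariant chain, read 55.3 in wild type against 63.0 and 85.8, and Ifi30 38.7 against 44.9 and 55.4. The lowest differences were those of Ctsc, at 29.1 against 27.8 and 21.7, and Ctsl, at 5.77 against 5.22 and 4.58. The 10 measured regulators of Ciita, of 11 listed, had medians of -0.04 and 0.23. Ifngr2, a chain of the interferon gamma receptor, read 25.6 against 33.1 and 49.1, and Irf2 11.9 against 14.4 and 15.8. The inhibitor Socs1 read 0.996 against 0.516 and 0.965, and the kinase Jak1 13.6 against 11.7 and 14.4. These values place no gene of interferon signalling or peptide supply past the test.

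Genes of class II turnover and costimulation, 7 of them tested, had medians of -0.003 and 0.09. Pdcd1lg2 read 0.463 in wild type against 1.46 and 0.880, and Icosl, the ligand of ICOS, 2.06 against 2.05 and 3.97. Cd274, which encodes PD-L1, read 2.21 against 1.23 and 1.53, and the receptor Cd40 2.69 against 1.87 and 2.10. For comparison, the 15 tested genes of MHC class I presentation had medians of -0.06 and 0.45. The immunoproteasome subunit Psmb8 read 21.7 against 19.5 and 37.7 and the chaperone Calr 69.7 against 74.0 and 98.0. The class I gene H2-Q10 read 9.94 against 4.16 and 4.12, and Nlrc5, the class I counterpart of Ciita, 4.93 against 2.59 and 2.20. Both were lower in both depleted arrays and neither was called (limma adjusted p = 0.9999). The class I genes of the locus are close copies, so it is uncertain which of them a probe set measured.

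**Figure D4:**
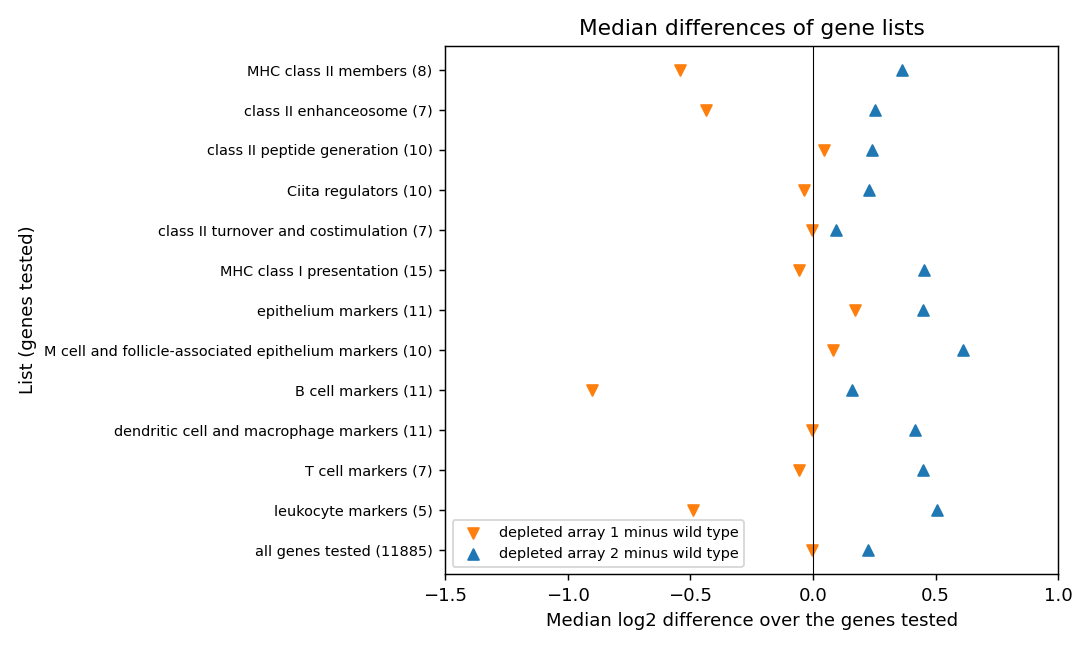
Median log2 difference from wild type over the tested genes of each list (number in brackets), in depleted array 1 (down triangles) and depleted array 2 (up triangles), with 1 probe set per gene and no test. The class II members sit at -0.54 and 0.36, the leukocyte markers at -0.49 and 0.50, the B cell markers at -0.90 and 0.16 and all genes at -0.003 and 0.22.

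Several cell types of this tissue make class II, and several of their markers had the same order over the arrays as many of the members. In bulk RNA fewer cells of a type and less RNA per cell cannot be told apart. All 5 markers of leukocytes were lower than wild type in depleted array 1 and higher in depleted array 2. This is the order of H2-Ab1 and the brighter H2-DMa probe set, and of 30.5% of all probe sets tested. Ptprc, which encodes CD45, read 20.4 in wild type against 13.8 and 31.1. The summed level of the 5 was 139 in wild type, 95.8 in depleted array 1 and 191 in depleted array 2. B cell markers were lower in depleted array 1 in 10 of 11, beside 5969 of all 11885 genes tested. In both depleted arrays 4 of the 11 were lower, beside 19.5% of all genes tested. The summed level of the 11 was 48.7 in wild type, 22.3 in depleted array 1 and 52.4 in depleted array 2. Without Cd79a, the brightest, the sums were 37.6, 16.5 and 35.7. Of their defining genes Ms4a1 read 11.1 against 4.12 and 6.73, and Cd79a 11.1 against 5.85 and 16.7. Summed levels of dendritic cell and macrophage markers were 86.0, 83.7 and 104 over 17 genes. Lyz2, the lysozyme of macrophages, made up most of this at 56.8, 55.7 and 70.0, and the other 16 summed to 29.2, 28.0 and 34.1, with Itgax at 1.93 against 1.79 and 3.18, Flt3 at 1.07 against 0.944 and 0.962 and Csf1r at 2.38 against 3.22 and 3.58. Adgre1 read 0.151 at most. T cell markers summed to 15.8, 12.8 and 22.2 over 7 genes and, without Cd8a, to 9.70, 9.71 and 14.5, with Cd3e at 2.59 against 2.69 and 4.15, Cd4 at 0.861 against 0.756 and 1.05 and Cd8a at 6.08 against 3.12 and 7.70. The 2 measured ILC3 markers summed to 1.53, 2.05 and 2.64, with Il7r at 1.21 against 1.84 and 1.97. Stroma markers summed to 16.3, 15.3 and 23.6 over 6 genes, of which Vim, a gene that leukocytes also express, gave 13.0, 12.3 and 16.6. The other 5 summed to 3.25, 3.02 and 7.06, with Col1a1 at 0.928 against 0.627 and 1.16, Pdgfrb at 0.555 against 0.596 and 2.55 and Pecam1 at 1.64 against 1.03 and 1.77. No measured marker was listed at 0. The part of these cells in the class II values was not tested.

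Markers of the labelled tissue were present. Epithelial genes were bright in all 3 arrays, with Epcam at 109 in wild type against 129 and 153, Vil1 at 70.7 against 85.3 and 78.6 and Cdh1 at 65.6 against 81.5 and 81.2. They were higher than wild type in both depleted arrays in 9 of 11, beside 39% of all genes tested, as were H2-Eb1 and Cd74 among the 8 members. Of the probe sets tested with a mean of at least 5, 42.3% were higher in both. The median over the epithelial genes of the mean log2 difference was 0.31, and 0.06 after quantile normalization. Of the follicle-associated epithelium and M cell markers, 6 of 10 were higher in both. Ccl20 read 49.9 against 45.2 and 74.6, Spib 38.9 against 33.8 and 67.6 and Gp2, the bacterial receptor of M cells, 19.8 against 9.90 and 32.6. Those 3 had the low depleted array 1 and high depleted array 2 of H2-Ab1. No gene of the 8 marker lists was called by limma over 60 tested, and 2, Ms4a1 and Ccr7, had an unadjusted p under 0.05. The ratio of 3' to 5' signal of the Gapdh controls, which bears on RNA quality, was 1.83 in wild type, 2.28 in depleted array 1 and 1.54 in depleted array 2. That of the b-Actin controls was 1.11, 1.15 and 1.02. Both ratios were highest in depleted array 1 and lowest in depleted array 2, the reverse of the order of H2-Ab1. The part of RNA quality in the low class II readings of depleted array 1 was not tested.

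The brightest probe sets of H2-Aa, H2-Ab1, H2-Eb1 and Cd74 had a median log2 difference of -0.10 in depleted array 1 and 0.40 in depleted array 2. None of these genes has that midpoint as its own pattern, since H2-Aa and H2-Ab1 were below wild type in depleted array 1 (-0.61 and -0.45) and H2-Eb1 and Cd74 above it (0.27 and 0.24). Among the 11877 other genes tested, the nearest to the midpoint by Euclidean distance in these 2 differences were 2810459M11Rik, Adh5, Pcyt1a, Gpr19 and Dnaja3, at distances of 0.004 to 0.009. In all, 335 of the 11877 lay within 0.1 of the midpoint, so these 5 are not set apart by their closeness.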

How the data were processed

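The authors deposited an intensity for each probe set on each array, on a linear scale. MAS5 is the tool the submitters' processing notes name. Each array has a median of 1, as found from the values. Detection calls were not used here. Names come from the platform annotation: 34945 had 1 symbol, 932 several and 9160 none, beside 64 Affymetrix controls. All 8 members with a probe set matched RefSeq (GRCm38.p6) by Entrez number. Probe sets with 1 symbol and a mean at or above the 40th percentile (0.598) were tested as log2(value + 0.248), the pseudocount being the 25th percentile of all values. R 4.3.3 with limma 3.58.1 was used (lmFit, eBayes with intensity trend), with 1 wild type and 2 depleted arrays, so that 1 residual degree of freedom per probe set was available. The fit was checked on simulated data with normal noise of the same spread in every array. No single outlying array was simulated, so the check does not bear on the call of H2-Aa 1438858_x_at. Lists use each gene's brightest probe set. The members, lists and tests were chosen with earlier results of these data known. Members are named in full, complex and locus genes all, other pathway lists by the 2 highest and 2 lowest mean differences, marker lists by their defining genes, and 5 genes by distance. No depth applies to arrays, and their number limits the precision.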

Additional observations from a re-analysis of the deposited data

How the results depend on the processing

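The pseudocount, intensity floor, scaling, unit of the fit and variance trend were varied. The count of member probe sets called, 1 as reported, was 0 with a pseudocount of 1 or 5, no filter, quantile normalization, the same 75th percentile in every array, 1 probe set per gene, averaging a gene's probe sets, eBayes without trend, and 2 scalings chosen after seeing the data (centring on the median difference, and scaling to probe sets with a mean of at least 5). It stayed 1 with the floor at the 60th percentile. The count over all probe sets, 21, was 2 with no filter, 7 after quantile normalization, 7 after scaling to 1 shared 75th percentile, and 10 with 1 probe set per gene. Members lower in both depleted arrays numbered 3, and 1 with 1 probe set per gene, 2 with the floor at the 60th percentile, 2 when averaging a gene's probe sets, 4 after quantile normalization, and 3 under the other alternatives with a fit. Over all probe sets or genes tested the share lower in both was 21.3% in the main setting and 18.1% to 32.0% under the alternatives. Leaving out a depleted array leaves no test, and the count lower in the remaining one was 3 without depleted array 1 and 10 without depleted array 2. Of all probe sets tested, 51.9% were lower in depleted array 1 and 67.5% were higher in depleted array 2. For H2-DMa 1459872_x_at the difference turned to -0.023 when centred and -0.029 when scaled to bright probe sets, and no other member turned its direction under the alternatives with a fit. The 14 other member probe sets were called under none of them. No paired analysis was possible because there is 1 wild type array and the sample titles tie it to neither depleted array.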

Other observations

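A few bright probe sets shared the drop of H2-Aa 1438858_x_at in depleted array 1, chosen here after their values were seen. Of 2393 tested probe sets at 20 or above in both wild type and depleted array 2, 7 were at least 2-fold lower in depleted array 1 on the log2(value + 0.248) scale. After H2-Aa the next were Saa1, an acute phase protein of the inflamed gut, with probe sets at 21.0 in wild type, 2.70 in depleted array 1 and 35.5 in depleted array 2 and at 34.0, 5.56 and 56.0. H2-Q2, a nonclassical MHC class I gene of the same locus as H2-Aa, read 25.5, 3.28 and 24.5. The remaining ones were probe sets of Xpo1, Igk-V21 and Dkc1, with drops of 1.03 to 1.35 on the log2 scale. No test was made of these.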
